A study of Homo sapiens with 6 samples.

Results

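The genes described here are the WNT ligands, their receptors, their secreted antagonists, the R-spondins and a pair of transcriptional targets. They were chosen by name: protein-coding genes called WNT, FZD, SFRP or DKK with a number, together with FRZB, WIF1, LRP5, LRP6, ROR1, ROR2, RYK, RSPO1 to RSPO4, AXIN2 and LEF1. The annotation holds 50 such genes, and 41 of them are among the 28181 genes listed in the files. RNA was sequenced from 3 libraries of UE7T-9 SHC4 cells and 3 of UE7T-9 Cont cells, named SHC4 and Cont in what follows. UE7T-9 cells are mesenchymal stem cells of human bone marrow, immortalized with hTERT and the E7 gene of human papillomavirus. UE7T-9 SHC4 carries a lentiviral vector in which the CMV promoter drives the coding region of SHC4, an adaptor protein of receptor tyrosine kinase signaling, and the control cells of the study carry the same vector with GFP. The sample labels call the controls nontarget and give their genotype as WT. Both lines were grown in DMEM, and both vectors carry puromycin resistance, with which infected cells were selected. The labels speak of SHC4 clones without giving their number, and whether the 3 libraries of a group came from separate infections or cultures is not given, so p-values measure the spread between these libraries. In RNA of a whole culture, fewer cells that express a gene and less of its RNA per cell cannot be told apart.

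WNT proteins are secreted, lipid-modified ligands that bind Frizzled (FZD) receptors on the cell surface. Together with the co-receptors LRP5 and LRP6 they keep β-catenin from being degraded, and β-catenin then works with TCF and LEF factors in the nucleus to raise target genes such as AXIN2. Other WNT proteins, with WNT5A as the best known, act through ROR1, ROR2 or RYK on cell polarity and movement. In bone marrow stroma the pathway is known for its part in the choice between bone and fat formation, and stromal cells release antagonists such as DKK1 and SFRP1.

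Values are normalized counts, that is, gene counts divided by 1 size factor per library. The 3 reads that were taken as the limit of detection corresponded to a normalized count of 2.50 to 3.53, and the libraries held 18144993 to 27721397 reads. The SHC4 gene was at 56.5, 157 and 130 in Cont and 134870, 119166 and 155006 in SHC4, in accordance with the labels. The mesenchymal markers NT5E, THY1 and ENG were at 2286 or more in every library, whereas 8 listed markers of haematopoietic, epithelial and endothelial cells summed to 221 to 411 in Cont and 287 to 345 in SHC4, with PTPRC, EPCAM and CDH5 at 6.82 or less. Cont replicate 1 correlated more highly with the SHC4 libraries (Pearson's r = 0.975, 0.969 and 0.968 over 23040 genes, on the log2 scale) than with the other control libraries (0.967 and 0.962). Calls that change without Cont replicate 1 are therefore given both ways. Since this library was singled out for its likeness to SHC4, leaving it out favours larger differences between the groups.

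None of the WNT family genes passed the test for a difference between SHC4 and Cont. The test was limma on log2(normalized count + 1), with Benjamini-Hochberg adjustment over the 23040 genes whose mean was at least 1. Called genes had an adjusted p below 0.05 together with a log2 fold change beyond 1 in either direction. Of the 41 genes, 37 reached that mean, and limma called 0 higher and 0 lower, where it called 0.0608% of all genes tested (0.0521% higher and 0.00868% lower). DESeq2 called 0 of the 31 WNT family genes that received an adjusted p, where it called 2.2% of all such genes. On the same recovered counts, the quasi-likelihood test of edgeR called 0 of 31, where it called 0.0631% of all genes (0.0568% higher and 0.00631% lower). Before adjustment, 5 of the genes had a p below 0.05 with DESeq2 and 5 with edgeR. The share of all genes at that unadjusted p was not computed for these tools, so these counts have no background beside them.

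An unadjusted limma p below 0.05 was reached by 6 of the 37 genes (16.2%), against 14.4% of all genes tested. These were SFRP4, FZD4, WNT9A and FZD7, 4 genes with higher values in SHC4, as 7.47% of all genes had, and WNT16 and WNT5B, 2 genes with lower values, as 6.96% of all genes had. The 3 libraries of one group lay apart from the 3 of the other for 4 of the 37 genes, namely FZD4, WNT9A, WNT16 and WNT4. This is 10.8% of them, against 19.3% of all genes tested. Among 25 genes whose mean reached 50 it was 1, FZD4, against 23.4% of all genes of that level. A single gene cannot go below p = 0.1 in an exact permutation test of 3 libraries against 3.

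The fold changes of the family centred near 0. The log2 fold change was above 0 for 21 genes and below 0 for 16, while it was above 0 for 49.7% of all genes. The median was 0.06 beside -0.0040 for all genes, and -0.042 beside -0.10 for all genes when libraries were scaled by their size. Of the 25 genes whose mean reached 50, 18 had a 95% interval that lay wholly between -1 and 1, so that a doubling or a halving was outside it. The remaining 7 intervals, those of SFRP4, SFRP1, FZD4, ROR2, WNT2B, RSPO3 and DKK1, reached past 1 or -1. For these genes a change of that size lay within the interval.

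**Figure D1:**
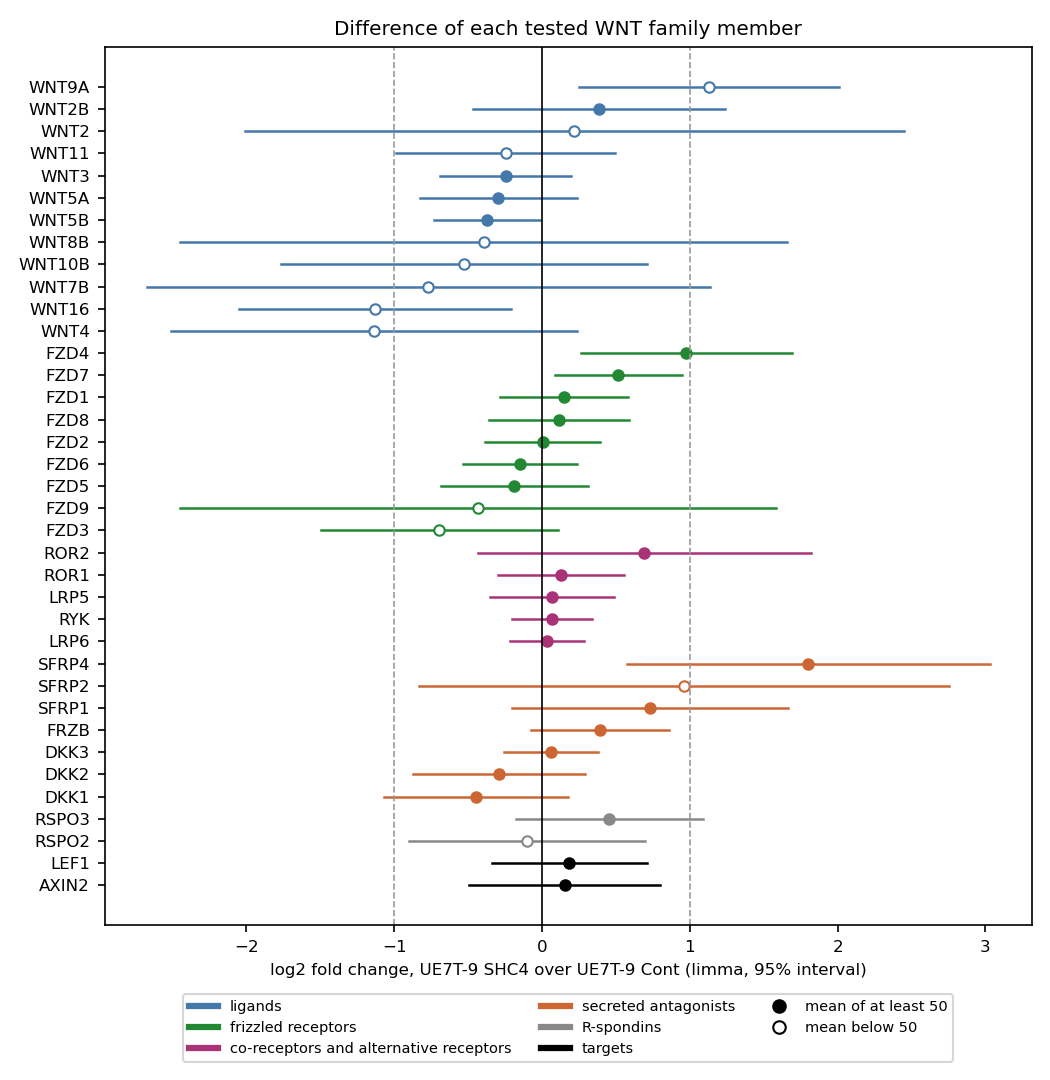
Log2 fold change of SHC4 over Cont (x axis) for the 37 WNT family genes tested with limma (y axis), with 95% intervals as lines, colours for the roles and dashed lines at -1 and 1. SFRP4 lies farthest to the right at 1.80 with an interval from 0.57 to 3.03, while LRP6, RYK and LRP5 lie within 0.07 of 0.

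In both groups few genes held most of the summed ligand, Frizzled and antagonist levels, whereas the co-receptors were spread more evenly. To compare genes with each other, normalized counts were divided by the length of all annotated exons in kilobases. On this per-length scale the highest means over the 6 libraries were those of DKK1 (1206 ± 438, SD, n = 6), SFRP1 (1192 ± 547), FZD7 (711 ± 189), FZD2 (676 ± 103), FZD6 (556 ± 85.6) and WNT5A (469 ± 139). DKK1 and SFRP1 did not differ beyond their spread, and neither did FZD7 and FZD2. The targets were far lower, with LEF1 at 59.8 ± 13.2 and AXIN2 at 12.6 ± 2.79 per kilobase.

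**Figure D2:**
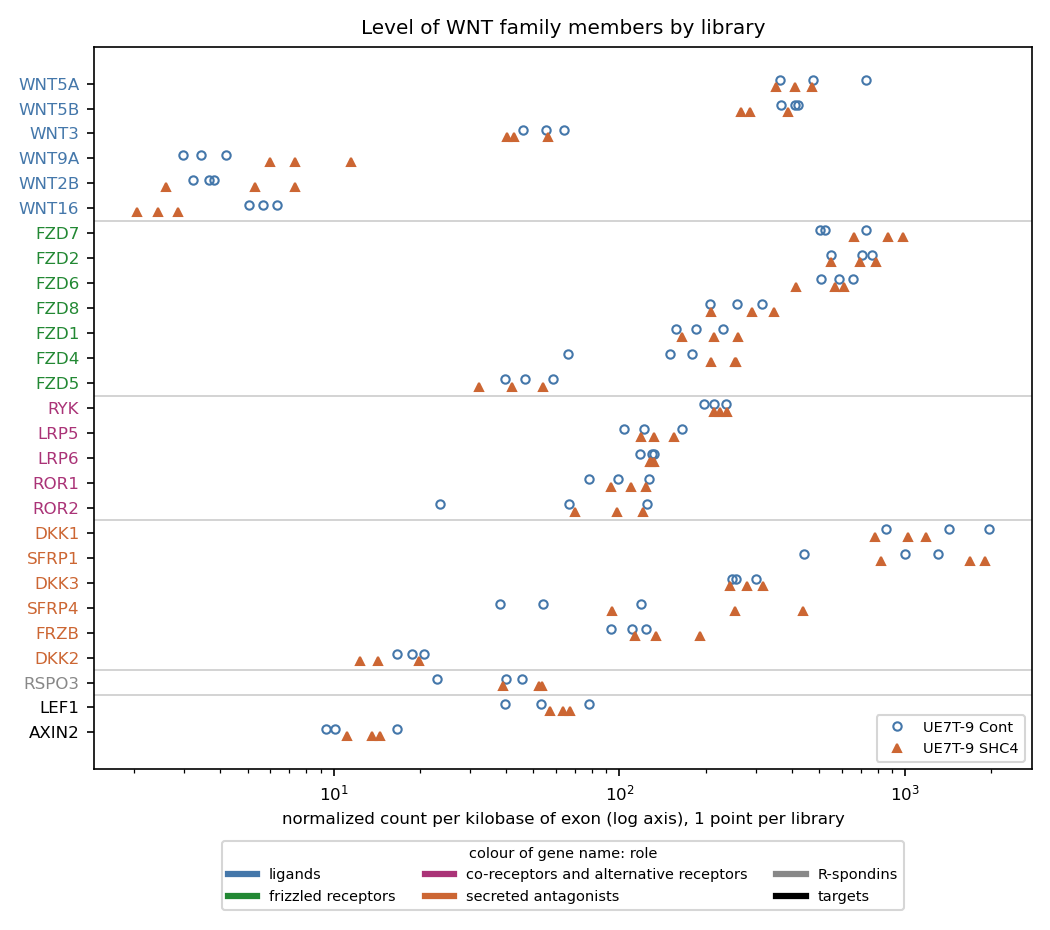
Normalized count per kilobase of exon (x axis, logarithmic) of the 27 WNT family genes described by library (y axis, ordered by level within each role), with 1 open circle per Cont library and 1 triangle per SHC4 library. The symbols of the groups overlap for all genes but FZD4, WNT9A and WNT16, and DKK1 and SFRP1 reach the highest levels.

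Among the ligands, UE7T-9 cells expressed mainly WNT5A and WNT5B. On the per-length scale WNT5A took 50.2% ± 7.43 in Cont and 51.1% ± 7.63 in SHC4 of the summed ligand level (SD, n = 3 each), and WNT5B took 39.9% ± 6.10 in Cont and 38.6% ± 6.94 in SHC4. WNT3, a ligand of the β-catenin branch, followed with 5.46% ± 0.952 in Cont and 5.73% ± 0.894 in SHC4. The shares of these 3 ligands differed by less than their spread, while those of the minor ligands WNT9A (0.358% ± 0.104 in Cont and 1.04% ± 0.426 in SHC4) and WNT16 (0.576% ± 0.152 in Cont and 0.301% ± 0.0365 in SHC4) lay apart. The summed ligand level per kilobase was 813, 1246 and 1017 in Cont and 831, 757 and 838 in SHC4. The groups overlapped in this sum, with Cont replicate 1 at the level of the SHC4 libraries.

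WNT5A (chromosome 3 from 55465715 to 55490539, minus strand, GRCh38) had normalized counts of 2707, 5408 and 3523 in Cont and 2605, 3049.8 and 3502 in SHC4. The highest value was that of Cont replicate 2, the other controls lay among the SHC4 libraries or near them, and the log2 fold change was -0.30 (standard error 0.24, 95% interval -0.83 to 0.23, limma adjusted p = 0.605). It was -0.03 without Cont replicate 2 and -0.53 without Cont replicate 1. WNT5B (chromosome 12 from 1529891 to 1647243, plus strand), its closest paralog, was at 1576, 1778 and 1818 in Cont and 1667, 1146 and 1229 in SHC4. Replicates 2 and 3 of SHC4 lay below every control, whereas replicate 1 lay among them. The log2 fold change of WNT5B was -0.37 (standard error 0.16, 95% interval -0.73 to -0.02, limma adjusted p = 0.328). WNT3 was at 199.8, 239 and 277 in Cont and 243, 176 and 185 in SHC4, again overlapping, with a log2 fold change of -0.25 (95% interval -0.69 to 0.19).

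The other ligands were expressed at low levels, and the largest relative differences of the role were found there. WNT9A (chromosome 1 from 227918656 to 227947898, minus strand), which is known from joint and cartilage development, had normalized counts of 13.6, 11.8 and 16.7 in Cont and 23.7, 45.8 and 29.1 in SHC4. All 3 SHC4 libraries lay above all controls, the means were 14.05 ± 2.50 in Cont and 32.9 ± 11.5 in SHC4 (SD, n = 3 each), and the log2 fold change was 1.13 (standard error 0.39, 95% interval 0.25 to 2.01, limma adjusted p = 0.249). WNT16 (chromosome 7 from 121325367 to 121341104, plus strand), a ligand known for its part in cortical bone, was at 18.5, 16.5 and 20.7 in Cont and 7.91, 6.66 and 9.32 in SHC4. Here all SHC4 libraries lay below all controls, with means of 18.6 ± 2.09 in Cont and 7.96 ± 1.33 in SHC4 (SD, n = 3 each) and a log2 fold change of -1.13 (standard error 0.41, 95% interval -2.05 to -0.21, limma adjusted p = 0.267). WNT9A and WNT16 were not called by DESeq2 (adjusted p = 0.161 and 0.261) or edgeR (adjusted p = 0.192 and 0.185) either. WNT2B was at 47.8, 45.9 and 40.3 in Cont and at a wider 92.3, 32.5 and 66.4 in SHC4. Of its exon bases, 21.2% are shared with ST7L on the opposite strand, and the strand setting of the counting is not given in the sources used here, so the count of WNT2B is uncertain.

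WNT11 ranged from 22.0 to 34.1 over the 6 libraries, and WNT10B ranged from 12.7 to 65.9 among the controls alone. WNT4 was at 6.82, 5.89 and 9.84 in Cont and 0.879, 4.16 and 4.66 in SHC4, few reads in either group, without overlap. WNT1, WNT2, WNT6, WNT7B, WNT8B and WNT9B did not exceed 6.82 in any library, and WNT1, WNT6 and WNT9B did not reach a mean of 1. WNT3A, WNT7A, WNT8A and WNT10A were not analysed here. In all, 3 of the 12 tested ligands had higher and 9 lower means in SHC4 on the log2 scale, with 0 called in either direction and a median log2 fold change of -0.33, which was -0.54 without SHC4 replicate 1.

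Frizzled receptors are the WNT-binding receptors with 7 membrane spans, and 7 of the 9 listed Frizzled genes reached a mean of 50. FZD7 and FZD2, close paralogs that both bind several WNT proteins, and FZD6, known for planar cell polarity, made up most of the role. On the per-length scale FZD7 took 23.5% ± 4.12 in Cont and 29.4% ± 3.50 in SHC4 of the summed Frizzled level, FZD2 took 27.3% ± 5.27 in Cont and 24.3% ± 6.39 in SHC4 and FZD6 took 23.5% ± 3.39 in Cont and 18.6% ± 2.14 in SHC4. The summed level was 2454, 2584 and 2402 in Cont and 2527, 2991 and 2960.0 in SHC4. SHC4 replicate 1 lay among the controls and the other SHC4 libraries above them.

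FZD4 (chromosome 11 from 86945679 to 86955391, minus strand), the receptor of both WNT ligands and norrin, showed the smallest p-value of the Frizzled genes. Its normalized count was 1328, 1109 and 488 in Cont and 1873, 1548 and 1893 in SHC4. All SHC4 values lay above all controls, and Cont replicate 3 was the lowest by far. The means were 975 ± 436 in Cont and 1772 ± 194 in SHC4 (SD, n = 3 each), and the log2 fold change was 0.98 (standard error 0.32, 95% interval 0.26 to 1.69, limma adjusted p = 0.226). DESeq2 gave an adjusted p of 0.102 and edgeR 0.239. Without Cont replicate 1, limma called FZD4 higher (log2 fold change 1.26, adjusted p = 0.0355), as it did 1.59% of all genes tested without that library (1.47% lower, 3.06% in all). Without Cont replicate 3 the log2 fold change was 0.54. Of the FZD4 exon bases, 1399 of 7383 (18.9%) lie under exons of PRSS23 on the opposite strand. PRSS23 had a mean normalized count of 13520.4 and a log2 fold change of 0.02 (limma adjusted p = 0.964), and what share of its reads entered the FZD4 count was not tested.

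FZD7 (chromosome 2 from 202034587 to 202038445, plus strand) had normalized counts of 2015, 2818 and 1945 in Cont and 2546, 3362 and 3779.9 in SHC4. Cont replicate 2 lay above SHC4 replicate 1, so the groups overlapped. The log2 fold change of FZD7 was 0.52 (standard error 0.19, 95% interval 0.09 to 0.95, limma adjusted p = 0.278). In contrast, FZD2 was at 1617, 1164 and 1495 in Cont and 1668, 1461 and 1166 in SHC4, with nearly the same range in both groups. Its log2 fold change was 0.00 (95% interval -0.39 to 0.39). FZD6 was at 2055, 2387 and 2660.0 in Cont and 1679.5, 2307 and 2478 in SHC4, with a log2 fold change of -0.15 (95% interval -0.53 to 0.24).

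FZD1 had normalized counts of 1602, 1295 and 1097 in Cont and 1156, 1803 and 1489 in SHC4. FZD8 was at 835, 1266 and 1042 in Cont and 845, 1399 and 1175 in SHC4, and FZD5 at 266, 393 and 313 in Cont and 216, 282 and 363 in SHC4. All 3 overlapped between the groups, with log2 fold changes from -0.19 for FZD5 to 0.15 for FZD1. FZD3 and FZD9 had means below 50, at 22.9 to 53.0 and 0 to 10.8 in single libraries, and FZD10 was not analysed here. Of the 9 tested Frizzled genes, 5 had higher and 4 lower means on the log2 scale, 0 were called, and the median log2 fold change was 0.0043.

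Among genes whose mean reached 50, LRP6 and RYK had the smallest standard errors of the family. LRP6 (chromosome 12 from 12116025 to 12267012, minus strand), the main β-catenin co-receptor, was at 1369.6, 1218 and 1339.8 in Cont and 1318, 1364 and 1331 in SHC4. These 6 values lay within a narrow band, and the log2 fold change of 0.03 (95% interval -0.22 to 0.29) had the narrowest interval of all WNT family genes tested. LRP5, the co-receptor in which mutations change bone mass, was at 1023, 642 and 753 in Cont and 815, 957 and 731 in SHC4, with a log2 fold change of 0.07 (95% interval -0.35 to 0.49). The SHC4 values of LRP5 lay inside the range of its control values.

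RYK (chromosome 3 from 134065303 to 134250744, minus strand), a WNT receptor with an inactive kinase domain, was the highest of the role per length. RYK had normalized counts of 1898, 1725 and 1593 in Cont and 1725, 1805 and 1916 in SHC4, with a log2 fold change of 0.06 (95% interval -0.21 to 0.34). ROR1, a receptor of WNT5A, was at 851, 664 and 523 in Cont and 629, 832 and 738 in SHC4, with a log2 fold change of 0.13 (95% interval -0.30 to 0.56). ROR2, the other ROR receptor of WNT5A, spread most among the controls, at 725, 386 and 137 in Cont against 407, 703 and 568 in SHC4. Cont replicate 1 held the highest and replicate 3 the lowest of the 6 values, and the log2 fold change of 0.69 (standard error 0.50, 95% interval -0.43 to 1.82, limma adjusted p = 0.563) lay between 0.04 and 1.24 when single libraries were left out. All 5 genes of this role had log2 fold changes above 0, with a median of 0.07 and 0 called, but under scaling by library size those of LRP5, LRP6 and RYK were below 0.

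Secreted antagonists bind WNT proteins (SFRP, FRZB, WIF1) or block LRP5 and LRP6 (DKK1, DKK2), and they held the highest single levels of the family. Their summed level per kilobase was 2408, 3727 and 2263 in Cont and 2347, 3309 and 3865 in SHC4. The groups overlapped over most of their range. DKK1 took 50.4% ± 13.7 in Cont and 32.6% ± 10.1 in SHC4 of that sum, and SFRP1 took 32.0% ± 11.3 in Cont and 45.0% ± 8.79 in SHC4 (SD, n = 3 each). SFRP4 took 2.69% ± 1.95 in Cont and 7.93% ± 4.75 in SHC4.

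SFRP4 (chromosome 7 from 37905932 to 38025695, minus strand), which is known as a regulator of bone remodelling, had the largest limma log2 fold change of the tested genes. Its normalized count was 429, 194 and 138 in Cont and 340.1, 1577 and 914 in SHC4. SHC4 replicates 2 and 3 lay above every control, whereas Cont replicate 1 lay above SHC4 replicate 1. The means were 254 ± 154 in Cont and 944 ± 619 in SHC4 (SD, n = 3 each), and the log2 fold change was 1.80 (standard error 0.55, 95% interval 0.57 to 3.03, limma adjusted p = 0.206). DESeq2 gave an adjusted p of 0.131 and edgeR 0.192. When single libraries were left out, the log2 fold change lay between 1.30 and 2.41, and it was called only without Cont replicate 1 (log2 fold change 2.26, limma adjusted p = 0.0342).

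SFRP1, an antagonist known to limit bone formation, was at 4751, 6209 and 2098 in Cont and 3904, 8039 and 9035 in SHC4. The lowest value was again that of Cont replicate 3, the groups overlapped, and the log2 fold change was 0.73 (standard error 0.41, 95% interval -0.20 to 1.67, limma adjusted p = 0.456). FRZB, a relative of the SFRP genes that was first found in cartilage, was at 349, 392 and 296 in Cont and 358, 425 and 607 in SHC4, with a log2 fold change of 0.40 (95% interval -0.07 to 0.86). SFRP2 did not exceed 15.7 and WIF1 did not exceed 2.33 in any library. SFRP5 and DKK4 were not analysed here.

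DKK1 (chromosome 10 from 52314296 to 52318042, plus strand), a blocker of LRP6 and itself a known target of β-catenin signaling, had normalized counts of 1895, 4344 and 3130.2 in Cont and 2257, 1736 and 2604 in SHC4. Cont replicates 2 and 3 lay above all SHC4 libraries, and Cont replicate 1 lay below all but replicate 2 of them. The log2 fold change was -0.45 (standard error 0.28, 95% interval -1.07 to 0.18, limma adjusted p = 0.498). DKK3, which does not block LRP6, was at 1516, 1294 and 1249 in Cont and 1409, 1229 and 1608 in SHC4, with a log2 fold change of 0.06 (95% interval -0.26 to 0.38). DKK2 was at 89.7, 81.2 and 71.8 in Cont and 61.5, 53.3 and 86.2 in SHC4, with a log2 fold change of -0.29 (95% interval -0.87 to 0.29). Of the 7 tested antagonists, 5 had higher and 2 lower means on the log2 scale, 0 were called, and the median log2 fold change was 0.40.

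**Figure D3:**
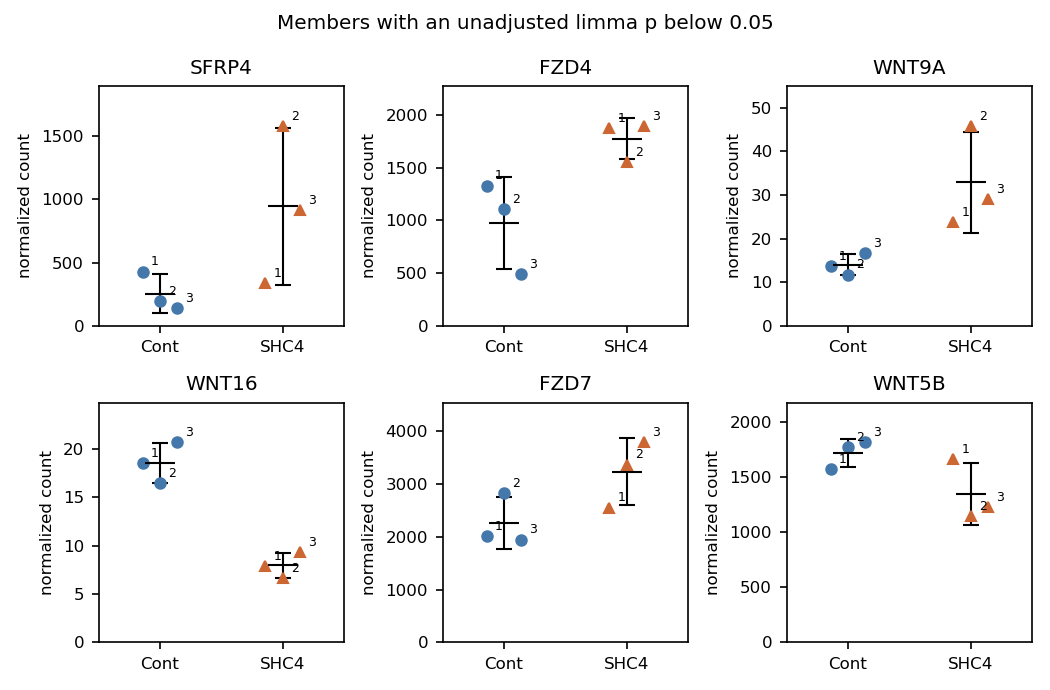
Normalized count (y axis, linear from 0) in the Cont and SHC4 libraries for the 6 WNT family genes with an unadjusted limma p below 0.05, with the replicate number beside each point and the mean and SD (n = 3) in black. The groups are separate for FZD4, WNT9A and WNT16 and overlap for SFRP4, FZD7 and WNT5B.

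The sequence before the start of 3 genes is shown here, since DKK1 is an antagonist that is also a target, and SFRP4 and FZD4 were the genes called without Cont replicate 1. Each is the 250 bases upstream of the RefSeq start on GRCh38.p14, read 5′ to 3′ on the strand of the gene, with capitals for the letters of a TCF/LEF motif.
DKK1: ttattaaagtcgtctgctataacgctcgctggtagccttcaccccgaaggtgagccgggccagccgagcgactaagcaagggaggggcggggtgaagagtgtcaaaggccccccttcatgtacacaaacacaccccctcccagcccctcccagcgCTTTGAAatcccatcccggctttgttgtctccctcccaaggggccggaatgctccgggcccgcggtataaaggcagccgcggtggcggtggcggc
SFRP4: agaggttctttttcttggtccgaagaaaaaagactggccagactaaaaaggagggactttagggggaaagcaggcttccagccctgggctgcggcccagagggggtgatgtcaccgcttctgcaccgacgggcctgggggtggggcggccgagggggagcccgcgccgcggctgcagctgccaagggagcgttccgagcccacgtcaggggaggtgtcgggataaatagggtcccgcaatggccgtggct
FZD4: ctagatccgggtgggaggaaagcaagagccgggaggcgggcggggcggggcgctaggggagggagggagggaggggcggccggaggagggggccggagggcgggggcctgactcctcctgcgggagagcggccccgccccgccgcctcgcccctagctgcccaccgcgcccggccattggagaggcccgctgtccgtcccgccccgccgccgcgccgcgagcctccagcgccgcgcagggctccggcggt
They lie at chr10:52314031-52314280 on the plus strand, chr7:37916818-37917067 on the minus strand and chr11:86955396-86955645 on the minus strand. The SFRP4 window lies within the annotated span given for that gene above, 37905932 to 38025695, and not before its outer 5′ end. The motif was searched as CTTTGAA and CTTTGAT on both strands. It was found in 1 of 31 upstream windows that RefSeq gave for 28 of the WNT family genes, that of DKK1, and in 5.94% of all 35116 windows of this length. In DKK1 the match begins 95 bases before the start. These are matches of letters and do not show that a factor binds.

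R-spondins are secreted proteins that keep WNT receptors on the cell surface through LGR4, LGR5 and LGR6. RSPO3 (chromosome 6 from 127118604 to 127197765, plus strand) was at 128, 145 and 72.8 in Cont and 124, 166 and 170.0 in SHC4. Cont replicate 3 was the lowest and the groups overlapped, at a log2 fold change of 0.46 (standard error 0.28, 95% interval -0.17 to 1.09, limma adjusted p = 0.491). RSPO2 ranged from 21.1 to 42.5 over the 6 libraries. RSPO1 and RSPO4 were not analysed here.

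AXIN2 and LEF1 are genes that β-catenin signaling raises in many tissues, AXIN2 as a feedback inhibitor and LEF1 as a factor that binds β-catenin. AXIN2 (chromosome 17 from 65528563 to 65561647, minus strand) had normalized counts of 86.8, 53.0 and 49.2 in Cont and 75.6, 58.3 and 71.0 in SHC4. LEF1 (chromosome 4 from 108047545 to 108168956, minus strand) was at 420.1, 285 and 212 in Cont and 306, 341 and 359 in SHC4. For both genes Cont replicate 1 was the highest of all 6 libraries and the other controls were the lowest, so the SHC4 libraries lay inside the range of the controls. The log2 fold changes were 0.15 (standard error 0.29, 95% interval -0.49 to 0.80, limma adjusted p = 0.849) for AXIN2 and 0.19 (standard error 0.23, 95% interval -0.34 to 0.71, limma adjusted p = 0.763) for LEF1.

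The position of each control library relative to the SHC4 libraries was counted over the family and over all genes. Of the same 25 genes above a mean of 50, Cont replicate 1 lay within the range of the SHC4 libraries for 14 (56.0%), replicate 2 for 12 (48.0%) and replicate 3 for 8 (32.0%). This was so for 43.4%, 36.2% and 30.2% of all 12678 genes of that level, so the order of the controls was not particular to the family. Among the family genes described by library, Cont replicate 3 had the lowest value of all 6 libraries for FZD1, FZD4, FZD7, ROR1, ROR2, RYK, FRZB, SFRP1, SFRP4, RSPO3, AXIN2 and LEF1. It had the highest value for WNT3, WNT5B, WNT16 and FZD6. The share of all genes with their lowest value in Cont replicate 3 was not computed. The mesenchymal marker THY1 was also lowest in Cont replicate 3, at 7742, 2939.6 and 2286 in Cont and 7845, 9569.9 and 7512 in SHC4. ENG was lowest there too, at 4817. NT5E went the other way, at 13089, 22364.5 and 20649 in Cont and 14682, 12068 and 16005 in SHC4. HLA-DRA, the highest of the markers of other cell types, was at 262, 89.5 and 72.8 in Cont and 151, 189 and 161 in SHC4, while PECAM1 was at 7.80, 11.8 and 12.8 in Cont and 9.67, 36.6 and 38.4 in SHC4. CD34 and CD14 had their lowest value in an SHC4 library, at 39.6 and 52.7. The part of these libraries in the differences above was not tested beyond leaving each of them out.

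**Figure D4:**
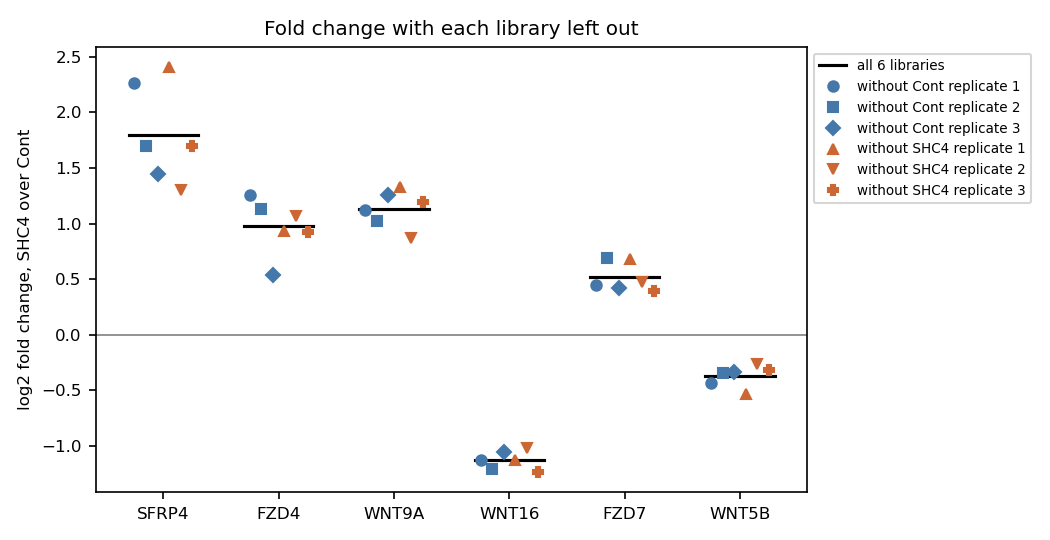
Limma log2 fold change (y axis) of the 6 WNT family genes with an unadjusted p below 0.05 (x axis), with all 6 libraries as a black line and with each library left out as a symbol. No gene changes sign, which choosing the genes by this p in the same libraries favours. The widest range is that of SFRP4, between 1.30 and 2.41.

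Genes that act with the family were read from 4 lists, of which 101 of 104 genes were listed in the files and 99 were tested. TCF7, ZNRF3, LGR5, NOTUM, APCDD1 and DACT1 were shared between lists and are counted once in these numbers. Limma called 0 of the 99 genes higher and 0 lower, and edgeR did likewise. An unadjusted limma p below 0.05 was reached by 21 genes (21.2%), 14 of them with a higher and 7 with a lower mean in SHC4, against 14.4% of all genes tested. Most of the listed genes, 88, had a mean of at least 50, and among all genes of that level the share was 18.9%. Whatever their p, the groups did not overlap for 21 of the 99 tested genes (21.2%). This compares with 19.3% of all genes tested and 23.4% of those whose mean reached 50. DESeq2 called 3 higher, namely TNFRSF11B, KREMEN1 and CTHRC1, where it called 1.05% of all genes higher, and it called 0 lower, where it called 1.15% of all genes lower. Without Cont replicate 1, limma called 8 of the genes higher and 0 lower, where it called 1.59% of all genes higher and 1.47% lower. These were KREMEN1 (log2 fold change 1.37, limma adjusted p = 0.00657), NFATC4 (1.16, 0.00496), TNFRSF11B (1.60, 0.0116), CCN4 (3.01, 0.000698), CCN5 (2.38, 0.00259), NFATC1, DAAM2 and VCAN.

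Secretion and surface regulators set how much WNT signal a cell sends and receives, and they had the highest median of the 4 lists, 0.53 over 20 tested genes (13 higher and 7 lower, 0 called by limma). KREMEN1, a receptor that removes LRP6 from the surface together with DKK1, was at 186, 117 and 92.5 in Cont and 243, 312 and 261 in SHC4. All SHC4 values lay above all controls, and the log2 fold change was 1.09 (standard error 0.26, 95% interval 0.52 to 1.67, limma adjusted p = 0.155), with a DESeq2 adjusted p of 0.0155. CTHRC1, a secreted protein that favours the ROR2 branch, was at 493, 504 and 788 in Cont and 706, 1903 and 1460.3 in SHC4, at a log2 fold change of 1.11 (standard error 0.33, 95% interval 0.35 to 1.86, limma adjusted p = 0.206) and a DESeq2 adjusted p of 0.0198. Cont replicate 3 lay above SHC4 replicate 1 for this gene. LGR4, a receptor of the R-spondins, was at 1462, 1547 and 1934 in Cont and 970.3, 1016 and 1049 in SHC4. Its groups did not overlap, and the log2 fold change of -0.69 (standard error 0.14, limma adjusted p = 0.111) passed the adjusted p but not the fold threshold in DESeq2 (-0.70, adjusted p = 0.00254).

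The list of WNT feedback and target genes had a median of 0.27 over 24 tested genes (19 higher and 5 lower, 0 called by limma). TNFRSF11B, which encodes the bone-protecting decoy receptor osteoprotegerin, was at 401, 320.2 and 218 in Cont and 1098, 571 and 830.3 in SHC4. All SHC4 values lay above all controls, at a log2 fold change of 1.40 (standard error 0.27, 95% interval 0.79 to 2.02, limma adjusted p = 0.111) and a DESeq2 adjusted p of 0.000371. CCN5, a secreted matricellular protein, was at 2135, 593 and 584 in Cont and 2104, 4648 and 2961 in SHC4, and its relative CCN4 at 2029, 313 and 163 in Cont and 1984, 2046 and 1519.7 in SHC4. In both, Cont replicate 1 lay at the level of SHC4 while the other controls were far lower. The log2 fold changes were 1.76 (standard error 0.47, 95% interval 0.69 to 2.83, limma adjusted p = 0.184) for CCN5 and 1.96 (standard error 0.73, limma adjusted p = 0.278) for CCN4. DESeq2 and edgeR gave smaller log2 fold changes, 1.55 for CCN5 and 1.15 for CCN4 with either tool. For CCN4 the edgeR adjusted p was 0.490, and DESeq2 gave no adjusted p. The classical targets CCND1 and MYC had log2 fold changes of 0.18 (95% interval -0.30 to 0.66) and -0.13 (95% interval -0.86 to 0.60).

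Genes of planar cell polarity and the other β-catenin-independent branches had a median of 0.05 over 27 tested genes (16 higher and 11 lower, 0 called by limma). NFATC4, a factor activated by calcium signaling, was at 2586, 2128 and 1611 in Cont and 3805, 4574 and 4108 in SHC4. Its groups did not overlap, and the log2 fold change of 1.00 (standard error 0.18, 95% interval 0.60 to 1.40, limma adjusted p = 0.0959) lay just beyond the fold threshold in limma and just under it in DESeq2 (0.98, adjusted p = 0.000325). CELSR1, an atypical cadherin of planar cell polarity, was at 1418, 1329 and 1487 in Cont and 991, 1097 and 932 in SHC4, lower in all SHC4 libraries than in all controls, at a log2 fold change of -0.49 (standard error 0.12, 95% interval -0.76 to -0.22, limma adjusted p = 0.166). ANKRD6, which binds Dishevelled, gave a log2 fold change of 0.69 (standard error 0.20, 95% interval 0.23 to 1.15, limma adjusted p = 0.201), also without overlap.

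The intracellular transducers, which carry the signal from Dishevelled to TCF factors, were the list with the most genes and a median of 0.04 over 34 tested genes (18 higher and 16 lower, 0 called by limma, DESeq2 or edgeR). CTNNB1, the gene of β-catenin, had a log2 fold change of 0.06 (95% interval -0.21 to 0.34). CSNK1G1, a kinase that phosphorylates LRP6, and BTRC, the ubiquitin ligase subunit that marks β-catenin for degradation, were lower in all SHC4 libraries than in all controls, with log2 fold changes of -0.46 (standard error 0.16, 95% interval -0.81 to -0.10, limma adjusted p = 0.247) and -0.39 (standard error 0.14, 95% interval -0.70 to -0.08, limma adjusted p = 0.259). TCF7L1, mostly known as a repressor of WNT targets, gave a log2 fold change of 0.60 (standard error 0.22, 95% interval 0.10 to 1.09, limma adjusted p = 0.277), and Cont replicate 1 lay among the SHC4 libraries.

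**Figure D5:**
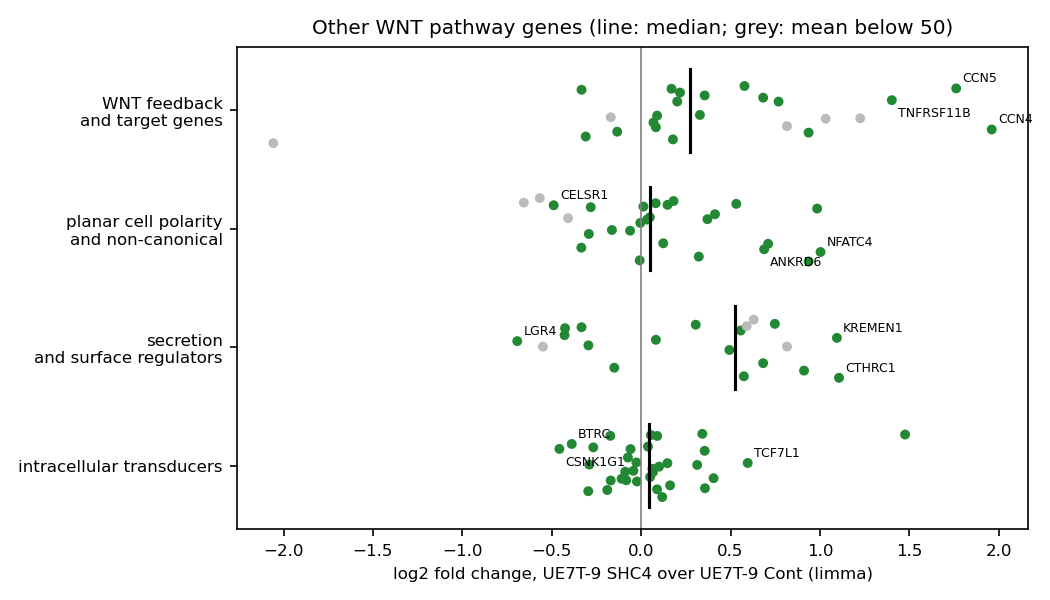
Limma log2 fold change of SHC4 over Cont (x axis) for each tested gene of the 4 other WNT pathway lists (y axis, points spread vertically for visibility), with the median as a black line and genes with a mean below 50 in grey. The medians are 0.04, 0.53, 0.05 and 0.27 from the lowest list to the highest, and CCN4 and CCN5 lie farthest to the right.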

How the data were processed

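RNA from 3 UE7T-9 Cont and 3 UE7T-9 SHC4 libraries was sequenced on a NovaSeq system. The submitters' processing notes name HISAT2 2.0.5, featureCounts 1.5.0-p3 and DESeq2; genome build, annotation and strand setting are not given in the sources used here. The deposited values are a signal, made by the authors by dividing gene counts by a size factor for each library. All values were whole multiples of the value of 1 read (100% of values, tolerance 0.01 reads), so counts were recovered. Identifiers were matched to GENCODE 29 (28181 of 28181), which also gave positions and exon lengths.

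The design assumed normalized counts, which the files held. Limma 3.58.1 (trend) in R 4.3.3 was applied to log2(value + 1) of 23040 genes (mean 1 or more), and the change of low genes is understated on this scale. DESeq2 1.42.0 and edgeR 4.0.16 on recovered counts, other scalings, filters and pseudocounts, a replicate block and leaving out each library were alternatives. Tests were checked on simulated data in which only genes with a mean of at least 50 were changed. The change put in was larger than that of any tested WNT family gene in limma. The check therefore does not cover smaller changes or lower genes. Named with values were family genes with a mean of at least 50, called by a tool or with an unadjusted p below 0.05, and from each other list genes called plus the 3 with the smallest p at a mean of at least 50; CCND1, MYC, CTNNB1, PRSS23 and ST7L were added after their values were seen. Genes and lists were chosen with earlier results of these data known.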

Additional observations from a re-analysis of the deposited data

How the results depend on the processing

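No WNT family gene was called under 13 of the 14 refits or without a fold change threshold. The exception was the fit without Cont replicate 1, so with libraries left out 0 to 2 were called higher and 0 lower. Of the other pathway genes, 0 were called by limma with all libraries, 3 higher by DESeq2, and 0 to 8 higher with libraries left out. Over all genes limma called 12 higher and 2 lower. DESeq2 called 170 and 185, limma without a filter 31 and 9, with library size scaling 19 and 5, with TMM scaling 20 and 4 and with the replicate block 25 and 14, while 1 was called lower with pseudocount 0.1 and 1 with edgeR. With libraries left out the counts were 1 to 367 higher and 0 to 339 lower, the highest without Cont replicate 1. Same-numbered libraries correlated at 0.148, 0.013 and -0.00696 in their deviations from the group means over the 23040 tested genes, not all above 0.1, so the numbers were not taken as pairs. Over 12678 genes whose mean reached 50 they correlated at 0.409, 0.146 and 0.149, but Cont replicate 2 correlated most with SHC4 replicate 3 (0.517). The replicate block called 0 WNT family genes.

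The median log2 fold change of the WNT family genes stayed within its spread between libraries, from -0.018 to 0.102 with libraries left out and -0.042 with library size scaling, which moved the median of all genes to -0.10. That scaling turned FZD2 to -0.099, LRP5 to -0.034, LRP6 to -0.070, RYK to -0.038 and DKK3 to -0.042. With libraries left out, the ranges that crossed 0 among genes described by library were -0.00353 to 0.317 for FZD1, -0.135 to 0.145 for FZD2, -0.372 to 0.00133 for FZD5, -0.258 to 0.0221 for FZD6, -0.0512 to 0.312 for FZD8, -0.0810 to 0.255 for LRP5, -0.0181 to 0.0662 for LRP6, -0.0455 to 0.305 for ROR1, -0.0352 to 0.159 for DKK3 and -0.0485 to 0.442 for LEF1. Those of the low genes WNT2, FZD9 and RSPO2 crossed 0 too. None of these genes was called in any fit. The median of the antagonists was 0.23 with a minimum mean of 10 or no filter, and 0.18 to 0.56 with libraries left out. WNT2, WNT4, WNT7B and WNT8B rest on few reads, which limits what can be said of them.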
